A study of Mus musculus with 12 samples.

Results

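The genes that move cholesterol and phospholipid out of liver cells and between plasma lipoproteins were followed in the RNA of 12 mouse livers. The 10 genes were *Abcg5*, *Abcg8*, *Abcb4*, *Atp8b1*, *Abca1*, *Abcg1*, *Scarb1*, *Lcat*, *Pltp* and *Mylip*, chosen by name, and each was found as 1 row in both deposited tables of 41743 genes. Whole livers of female mice aged 3 to 4 months were taken, in 4 groups of 3 mice. YAPKO mice (C57BL/6 background) had lost both copies of *Yap1* through *Foxa3*-Cre, and their line also carried a Cre-dependent EYFP reporter. YAPKO TAZHET mice (mixed C57BL/6 and FVB background) had lost both copies of *Yap1* and 1 copy of *Wwtr1*, the gene of TAZ, through the same Cre. Each model had WT littermates of its own background as controls. *Foxa3*-Cre acts in the foregut endoderm, from which hepatocytes and bile duct cells arise, and whole liver also holds macrophages, endothelial cells and stellate cells; *Yap1* was not measured by cell type. YAP is a coactivator of TEAD transcription factors, and mice of the YAPKO line are known to form no working bile duct system inside the liver.

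Hepatocytes send cholesterol and phospholipid out on 2 sides. On the canalicular side, ABCG5 and ABCG8 work as a heterodimer that secretes sterols into bile, ABCB4 presents phosphatidylcholine to the bile salts, and the flippase ATP8B1 keeps the outer leaflet of the canalicular membrane ordered. On the blood side, ABCA1 loads phospholipid and cholesterol onto apolipoprotein A-I to begin an HDL particle, ABCG1 adds cholesterol to larger HDL, LCAT esterifies that cholesterol in plasma, PLTP transfers phospholipid between particles, and SR-BI, the product of *Scarb1*, takes cholesteryl ester back into the hepatocyte. MYLIP (also called IDOL) is a ubiquitin ligase that sends VLDLR to degradation. Several of these genes, *Abca1*, *Abcg1*, *Abcg5*, *Abcg8* and *Mylip* among them, are known targets of the oxysterol receptors LXR.

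*Abcg5* (ENSMUSG00000040505, chromosome 17 of GRCm38, 84658234 to 84683011, minus strand) and *Abcg8* (ENSMUSG00000024254, 84676302 to 84700333, plus strand) lie head to head, with GENCODE's first *Abcg8* exon inside the *Abcg5* gene. The bases between their RefSeq start sites are shown because both subunits of the sterol transporter are transcribed away from it. *Abcb4* (ENSMUSG00000042476, chromosome 5, 8893717 to 8959231, plus strand) moved in the opposite direction to this pair and *Abca1* (ENSMUSG00000015243, chromosome 4, 53030787 to 53159895, minus strand) had no call, so the 250 bases upstream of their start sites are shown beside it. All are from RefSeq promoters on GRCm38.p6, 5′ to 3′, at chr17:84683012-84683120 on the plus strand, chr5:8893471-8893720 on the plus strand and chr4:53159896-53160145 on the minus strand. In the first and second sequence, capitals mark CTTATC, which read from the other strand is the core bound by GATA factors. The first also has GGAATG in capitals, the core bound by TEAD factors. In the third, capitals mark a match with 3 mismatches to DR4, the repeat bound by LXR, and then TATAAA.
Abcg5/Abcg8 interval: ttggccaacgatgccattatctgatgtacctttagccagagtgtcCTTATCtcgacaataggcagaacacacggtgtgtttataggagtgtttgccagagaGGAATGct
Abcb4 upstream: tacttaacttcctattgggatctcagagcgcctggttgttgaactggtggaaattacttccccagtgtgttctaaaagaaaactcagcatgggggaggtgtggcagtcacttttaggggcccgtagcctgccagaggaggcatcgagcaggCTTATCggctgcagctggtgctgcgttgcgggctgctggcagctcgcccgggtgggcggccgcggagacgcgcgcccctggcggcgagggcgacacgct
Abca1 upstream: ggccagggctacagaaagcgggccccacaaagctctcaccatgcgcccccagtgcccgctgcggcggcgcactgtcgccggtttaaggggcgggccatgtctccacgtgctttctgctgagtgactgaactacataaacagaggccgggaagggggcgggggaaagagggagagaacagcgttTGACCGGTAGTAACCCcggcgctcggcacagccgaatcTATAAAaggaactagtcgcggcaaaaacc

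A window of 300 bases (250 before and 50 after the start site) was held for 7 of the 10 genes; *Atp8b1*, *Abcg1* and *Scarb1* had none. The letters were searched on both strands. GATAAG was found in 4 of the 7 windows (*Abcg5*, *Abcg8*, *Abcb4* and *Lcat*) and in 7.44% of 32851 windows of all genes. GGAATG was found in 3 (*Abcg5*, *Abcg8* and *Lcat*; 14.7% of all windows), and the DR4 letters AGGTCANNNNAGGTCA with at most 3 mismatches in 2 (*Abca1* and *Lcat*; 21.9%). TATAAA was found in 5 (13.6% of all windows). The matches of *Abcg5* and *Abcg8* are the same bases, since their windows overlap, and in *Lcat* the GATAAG and DR4 matches share bases. These letters describe the windows and were not tested for binding in these livers.

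Every library summed to 1000000 TPM (transcript shares scaled for gene length and library total), so the number of reads behind a value is unknown and the spread between mice is the only error. For the tests, TPM was divided by a factor per library (1.09 to 1.22 in YAPKO and 0.852 to 0.913 in WT livers, 1.07 to 1.18 in YAPKO TAZHET and 0.858 to 0.947 in WT livers), 1 was added, and log2 was taken. Log2 fold changes below are on that scale, where the added 1 makes the change of a low gene smaller than it was. A gene was called where the limma p, adjusted by Benjamini-Hochberg over all genes tested in the comparison, was under 0.05. *Yap1* itself was at 28.2 to 30.5 TPM in WT (C57BL/6) and 1.67 to 3.72 TPM in YAPKO livers, and at 31.0 to 33.2 and 8.63 to 11.5 TPM in the mixed set (log2 fold changes -3.51 and -1.93, limma adjusted p = 8.56e-06 and 3.62e-05). *Wwtr1*, of which YAPKO TAZHET mice had lost 1 copy, was not lower in them, at 7.73 to 8.38 TPM in WT (mixed) and 11.5 to 14.1 TPM in YAPKO TAZHET livers (log2 fold change 0.26, limma adjusted p = 0.0744), and rose from 6.26 to 6.83 TPM in WT (C57BL/6) to 13.3 to 16.7 TPM in YAPKO livers (0.73, limma adjusted p = 0.00186). Against WT littermates, the loss of 1 copy was not seen as a lower level in whole-liver TPM. The change was smaller than in YAPKO mice, with a difference of 0.46 between the models (limma unadjusted p = 0.00541, adjusted p = 0.802). Markers of hepatocytes were abundant in all livers (8 genes, 71167 to 101458 TPM in sum). Macrophage markers were higher in all 6 knockout livers than in all 6 WT livers. In whole liver, fewer cells of a type and less RNA per cell cannot be told apart.

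In WT livers the levels, which TPM allows to be compared between genes, spanned from *Lcat* to *Abcg1*. In WT (C57BL/6) livers *Lcat* was at 618 ± 18.5 TPM (SD, n = 3), *Abcb4* at 109 ± 13.2, *Abcg5* at 92.4 ± 13.1, *Scarb1* at 89.8 ± 13.0, *Abcg8* at 54.3 ± 7.77, *Pltp* at 30.8 ± 8.40, *Abca1* at 24.3 ± 0.737, *Atp8b1* at 8.65 ± 0.404, *Mylip* at 5.95 ± 0.524 and *Abcg1* at 2.17 ± 0.481 TPM. *Abcb4*, *Abcg5* and *Scarb1* overlapped in this order, and each other step to the next gene was without overlap between the mice. In WT (mixed) livers the order was *Lcat* (622 ± 31.9 TPM), *Abcb4* (110 ± 25.9), *Scarb1* (108 ± 19.1), *Abcg5* (107 ± 13.5), *Abcg8* (81.2 ± 14.6), *Pltp* (35.9 ± 15.6), *Abca1* (30.8 ± 5.49), *Atp8b1* (9.90 ± 2.28), *Mylip* (8.52 ± 1.19) and *Abcg1* (2.70 ± 0.615). There *Lcat* stood apart from *Abcb4*, *Abcg8* from *Pltp*, *Abca1* from *Atp8b1* and *Mylip* from *Abcg1*, and the other neighbours overlapped.

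The order differed in the knockout livers. *Abcg5*, level with *Abcb4* and *Scarb1* in WT livers, stood below *Pltp* in every knockout liver. The levels were 43.7 ± 1.39 against 59.5 ± 8.39 TPM (SD, n = 3) in YAPKO and 40.01 ± 2.13 against 79.3 ± 18.7 TPM in YAPKO TAZHET livers. *Abcb4* stood above *Scarb1* in every mouse of both models, as it also did in every WT (C57BL/6) mouse. In both models, unlike in the WT groups, the levels of *Abcb4* and *Scarb1* did not overlap between the mice. *Abcg8* had changed places with *Abca1* as well, at 22.6 ± 1.26 against 31.9 ± 7.42 TPM in YAPKO and 29.0 ± 1.35 against 36.7 ± 3.44 TPM in YAPKO TAZHET livers. At the low end *Mylip* and *Abcg1*, which were apart in both WT groups, overlapped in both models.

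**Figure D1:**
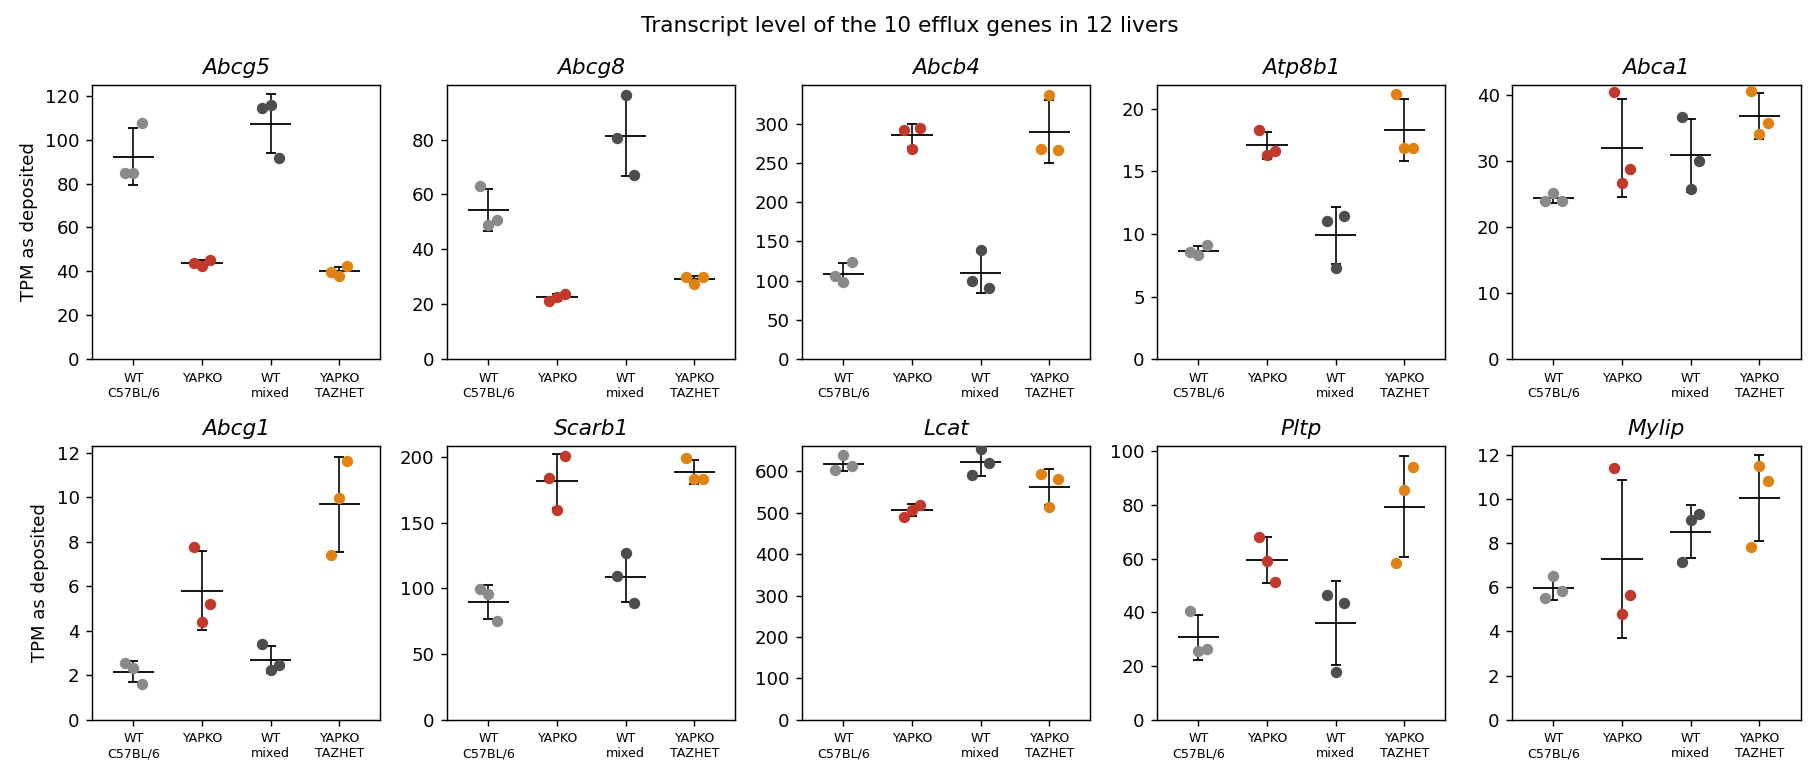
Each panel plots 1 gene in TPM as deposited (y axis, from 0) for the 3 mice of each of the 4 groups (points), with the group mean (line) and SD (bars). *Abcg5* and *Abcg8* lie lower, and *Abcb4*, *Atp8b1*, *Abcg1*, *Scarb1* and *Pltp* higher, in every knockout liver than in every WT littermate, while *Mylip* overlaps in both models.

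Of the 10 genes, 8 were called in YAPKO mice (5 higher, 3 lower), where 36.7% of 11704 genes were called (18.8% higher, 17.9% lower). In YAPKO TAZHET mice 7 were called (4 higher, 3 lower), where 38.2% of 11741 genes were called (19.2% higher, 19% lower). Without scaling and with quantile normalization the split of the 7 was 5 higher and 2 lower, with *Pltp* called and *Lcat* not. All 10 passed the filter on low values in both comparisons, and all were above 1 TPM in every liver. In TPM as deposited the mice of a group did not overlap with their littermates for 9 genes in YAPKO livers (all but *Mylip*) and for 7 in YAPKO TAZHET livers (all but *Abca1*, *Lcat* and *Mylip*), against 56.7% and 54.5% of all genes tested. For a single gene, 0.1 is the smallest p that the exact permutation test of 3 mice against 3 can give.

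Among the genes of the bile route, both subunits of the sterol transporter fell and the phospholipid transporter *Abcb4* and the flippase *Atp8b1* rose, in both models. The opposite movement was large enough that the ratio of *Abcb4* to *Abcg5* within a liver went from about equal to over 6.

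*Abcg5* reached 84.8, 84.7 and 108 TPM in WT (C57BL/6) mice, and 43.6, 42.3 and 45.1 TPM in YAPKO mice. The WT (mixed) livers held 115, 116 and 91.9 TPM and the YAPKO TAZHET livers 39.7, 38.1 and 42.3 TPM. All 6 knockout livers were below all 6 WT livers, and they differed among themselves by less than the WT livers did. The ratio of mean TPM was 0.473 in YAPKO and 0.373 in YAPKO TAZHET mice (exact permutation, two-sided p = 0.1 in each). By limma the fall was -1.41 ± 0.12 (log2 fold change ± SE, adjusted p = 0.000113) in YAPKO and -1.71 ± 0.12 (adjusted p = 2.84e-05) in YAPKO TAZHET mice.

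*Abcg8* was at 63.2, 48.9 and 50.8 TPM in WT (C57BL/6) and at 21.2, 22.7 and 23.7 TPM in YAPKO livers. On the mixed background, WT mice had 80.5, 96.2 and 66.9 TPM and YAPKO TAZHET mice 29.8, 27.5 and 29.8 TPM. Its groups did not overlap either, with ratios of mean TPM 0.415 and 0.358 (exact permutation, two-sided p = 0.1 in each). In YAPKO mice the log2 fold change came to -1.57 with a standard error of 0.15 (limma adjusted p = 0.000157), and in YAPKO TAZHET mice to -1.75 with a standard error of 0.14 (limma adjusted p = 5.95e-05). The 2 genes share 82 exonic bases on opposite strands in GENCODE M21, which are 3.02% of *Abcg5* and 2.19% of *Abcg8*, and reads from there cannot be told apart if the counting did not use strand.

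The balance between the subunits of the heterodimer was compared within each liver, which needs no scaling. The ratio of *Abcg5* to *Abcg8* TPM was 1.73 ± 0.387 (SD, n = 3) in WT (C57BL/6) and 1.94 ± 0.101 in YAPKO livers, a log2 difference of 0.19 (exact permutation, two-sided p = 0.5). It was 1.33 ± 0.116 in WT (mixed) and 1.38 ± 0.0454 in YAPKO TAZHET livers, a log2 difference of 0.05 (exact permutation, two-sided p = 0.7). The groups overlapped in both sets, so a shift in the balance was not detectable with 3 mice a group. Between the WT groups the ratio was lower by 0.35 on the log2 scale in the mixed set, again with overlap (exact permutation, two-sided p = 0.3).

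*Abcb4* was at 105, 97.9 and 123 TPM in WT (C57BL/6) and at 292, 268 and 295 TPM in YAPKO livers. Levels of 99.8, 140 and 90.9 TPM in WT (mixed) mice stood against 267, 337 and 266 TPM in YAPKO TAZHET mice. The lowest knockout liver (266 TPM) was well above the highest WT liver of either background (140 TPM). Ratios of mean TPM were 2.62 and 2.63 (exact permutation, two-sided p = 0.1 in each). Tested with limma, the log2 fold change was 1.03 ± 0.12 (SE, adjusted p = 0.000461) in YAPKO and 1.08 ± 0.18 (SE, adjusted p = 0.00263) in YAPKO TAZHET mice.

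*Atp8b1* (ENSMUSG00000039529, chromosome 18, 64528967 to 64661267, minus strand) was at 8.58, 8.29 and 9.08 TPM in WT (C57BL/6) and at 18.3, 16.3 and 16.7 TPM in YAPKO livers. The WT (mixed) livers held 11.004, 7.28 and 11.4 TPM and the YAPKO TAZHET livers 21.2, 16.8 and 16.9 TPM. Again no knockout liver overlapped with its littermates, with ratios of mean TPM 1.98 and 1.85 (exact permutation, two-sided p = 0.1 in each). By limma, YAPKO mice differed from WT by a log2 fold change of 0.57 ± 0.10 (SE, adjusted p = 0.0036) and YAPKO TAZHET mice by 0.54 ± 0.17 (SE, adjusted p = 0.0329). The call in YAPKO TAZHET mice was lost in 5 of 6 fits with 1 mouse left out, all but the one without WT (mixed) replicate LM230, with log2 fold changes from 0.36 to 0.68 and adjusted p up to 0.08 (limma). That call was also lost without the filter on low values.

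The ratio of *Abcb4* to *Abcg5* was formed after their values were seen, and is a description of the opposite movement. It was 1.24, 1.16 and 1.15 in the WT (C57BL/6) livers and 6.69, 6.34 and 6.54 in the YAPKO livers. In the mixed set it was 0.870, 1.21 and 0.990 in WT and 6.73, 8.85 and 6.28 in YAPKO TAZHET livers. The WT livers were thus close to parity, and all 6 knockout livers were above 6.

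**Figure D2:**
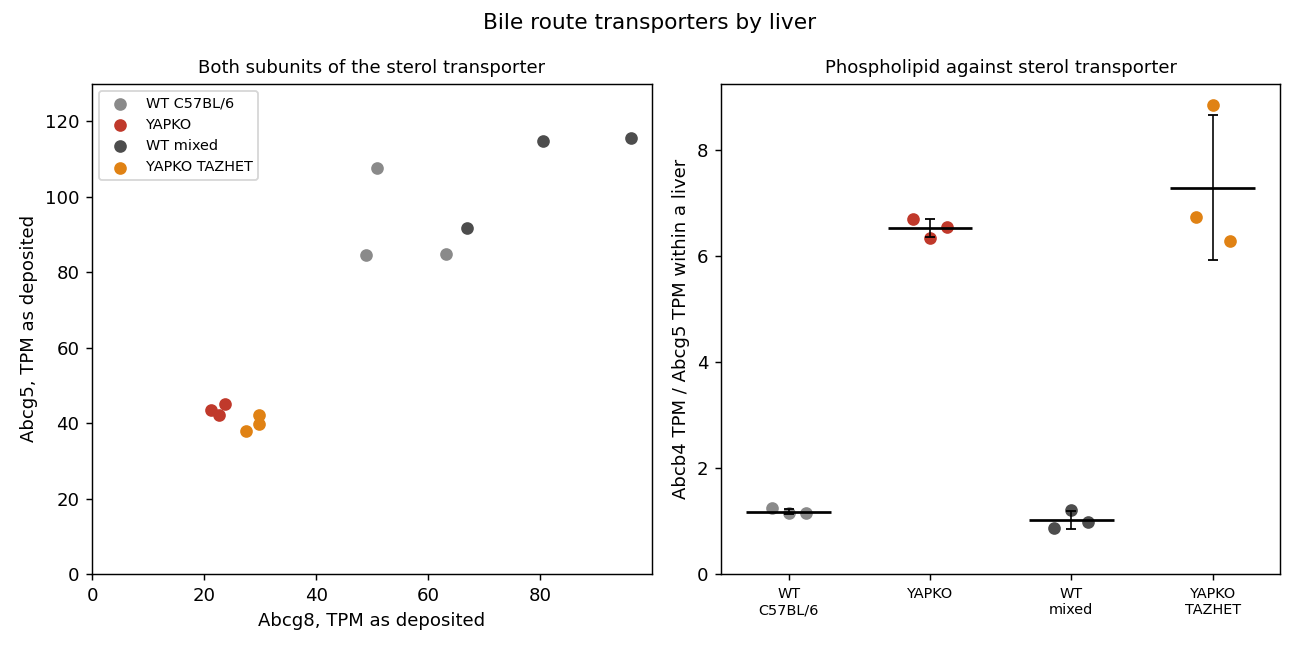
The left panel plots *Abcg5* against *Abcg8* in TPM as deposited, 1 point a liver, and the right panel the ratio of *Abcb4* to *Abcg5* TPM within each liver (points) with group mean and SD. The 6 knockout livers form the lower left of the first panel, and in the second lie between 6.28 and 8.85 against 0.870 to 1.24 in the WT livers.

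Of the genes of the plasma HDL route, *Abcg1* and *Scarb1* rose and *Lcat* fell in both models, *Pltp* rose in YAPKO mice, and *Abca1*, the gene of the first step, was not called in either. The median log2 fold change of the 5 genes was 0.60 in YAPKO and 0.48 in YAPKO TAZHET mice, beside a median of -0.04 over all genes tested in each. With 5 genes each median is the value of 1 gene, *Pltp* in YAPKO and *Scarb1* in YAPKO TAZHET mice. It does not describe *Lcat*, which fell, or *Abca1*. The 4 genes of the bile route had medians of -0.42 and -0.59, which lie between a pair that rose and a pair that fell and describe neither.

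*Abca1* was at 23.9, 25.2 and 23.9 TPM in WT (C57BL/6) and at 40.4, 26.6 and 28.7 TPM in YAPKO livers. On the mixed background, WT mice had 36.7, 25.8 and 29.9 TPM and YAPKO TAZHET mice 40.6, 34.0 and 35.6 TPM. The YAPKO livers were above their littermates as deposited, with replicate LM74 well above the other two, and the YAPKO TAZHET livers overlapped with theirs. The ratio of mean TPM was 1.31 (exact permutation, two-sided p = 0.1) and 1.19 (p = 0.3). Relative to the bulk of genes the log2 fold change was 0.01 (95% interval -0.29 to 0.30, limma adjusted p = 0.972) in YAPKO and -0.06 (95% interval -0.34 to 0.22, limma adjusted p = 0.75) in YAPKO TAZHET mice. Without scaling it was 0.35 (limma adjusted p = 0.0975) and 0.26 (limma adjusted p = 0.181), while the median of all genes was then 0.28 and 0.24.

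*Abcg1* (ENSMUSG00000024030, chromosome 17, 31057675 to 31117988, plus strand) was at 2.53, 2.34 and 1.62 TPM in WT (C57BL/6) and at 7.79, 4.38 and 5.21 TPM in YAPKO livers. Levels of 3.40, 2.25 and 2.44 TPM in WT (mixed) mice stood against 7.42, 9.98 and 11.7 TPM in YAPKO TAZHET mice. All 6 knockout livers were above all 6 WT livers, with ratios of mean TPM 2.67 and 3.59 (exact permutation, two-sided p = 0.1 in each). In YAPKO mice the log2 fold change came to 0.80 with a standard error of 0.19 (limma adjusted p = 0.013), and in YAPKO TAZHET mice to 1.26 with a standard error of 0.19 (limma adjusted p = 0.00159).

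*Scarb1* (ENSMUSG00000037936, chromosome 5, 125277087 to 125341094, minus strand) was at 99.1, 95.3 and 74.9 TPM in WT (C57BL/6) and at 184, 160 and 201 TPM in YAPKO livers. The WT (mixed) livers held 110, 127 and 88.8 TPM and the YAPKO TAZHET livers 199, 183 and 183 TPM. No knockout liver overlapped with a WT liver, and ratios of mean TPM were 2.02 and 1.74 (exact permutation, two-sided p = 0.1 in each). Tested with limma, the log2 fold change was 0.66 ± 0.14 (SE, adjusted p = 0.00887) in YAPKO and 0.48 ± 0.13 (SE, adjusted p = 0.0205) in YAPKO TAZHET mice. Leaving out WT (mixed) replicate LM226 or LM230 or YAPKO TAZHET replicate LM250 or LM251 ended the second call (limma adjusted p up to 0.0736, log2 fold change 0.38 to 0.62 over the 6 fits).

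*Lcat* (ENSMUSG00000035237, chromosome 8, 105939551 to 105943382, minus strand), the most abundant of the 10, was at 603, 639 and 614 TPM in WT (C57BL/6) and at 491, 508 and 520 TPM in YAPKO livers. On the mixed background, WT mice had 590, 654 and 621 TPM and YAPKO TAZHET mice 595, 513 and 581 TPM. The groups were apart in the C57BL/6 set and overlapped in the mixed set, with ratios of mean TPM 0.818 (exact permutation, two-sided p = 0.1) and 0.905 (p = 0.2). By limma, YAPKO mice differed from WT by a log2 fold change of -0.65 ± 0.10 (SE, adjusted p = 0.00202) and YAPKO TAZHET mice by -0.47 ± 0.12 (SE, adjusted p = 0.016). Without scaling these were -0.29 (limma adjusted p = 0.0188) and -0.14 (limma adjusted p = 0.295), so that the second call depended on the scaling, and it was also lost with quantile normalization and without WT (mixed) replicate LM227 or LM230 or YAPKO TAZHET replicate LM250.

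*Pltp* (ENSMUSG00000017754, chromosome 2, 164839518 to 164857711, minus strand) was at 40.5, 25.6 and 26.3 TPM in WT (C57BL/6) and at 68.0, 59.2 and 51.2 TPM in YAPKO livers. Levels of 46.4, 17.9 and 43.3 TPM in WT (mixed) mice stood against 58.3, 85.5 and 94.2 TPM in YAPKO TAZHET mice. As deposited no knockout liver overlapped with its littermates (ratios of mean TPM 1.93 and 2.21, exact permutation, two-sided p = 0.1 in each), but after scaling the groups overlapped in both sets. In YAPKO mice the log2 fold change came to 0.60 with a standard error of 0.19 (limma adjusted p = 0.0431), and in YAPKO TAZHET mice to 0.89 with a standard error of 0.35 (limma adjusted p = 0.0764). The first call was lost in 5 of 6 fits with 1 mouse left out, all but the one without WT (C57BL/6) replicate LM75 (log2 fold change 0.46 to 0.83), as well as without the filter and with all 12 libraries in 1 fit, and the second was gained without YAPKO TAZHET replicate LM225 or without scaling (1.21, limma adjusted p = 0.0196). *Pltp* shares 495 exonic bases, 19.3% of its own, with *Ctsa* on the other strand. The log2 fold change of *Ctsa*, a lysosomal protease gene, was 0.25 in each model (limma adjusted p = 0.106 and 0.0942).

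*Mylip* (ENSMUSG00000038175, chromosome 13, 45389742 to 45412022, plus strand) was at 5.51, 6.53 and 5.81 TPM in WT (C57BL/6) and at 11.4, 4.81 and 5.66 TPM in YAPKO livers. The WT (mixed) livers held 7.16, 9.07 and 9.34 TPM and the YAPKO TAZHET livers 7.83, 11.5 and 10.8 TPM. The groups overlapped in both sets, and YAPKO replicate LM74 alone held the high value of its group. The log2 fold change was -0.14 (95% interval -0.67 to 0.39, limma adjusted p = 0.673) in YAPKO and -0.08 (95% interval -0.53 to 0.36, limma adjusted p = 0.758) in YAPKO TAZHET mice, and it turned positive without scaling (0.17 and 0.21).

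**Figure D3:**
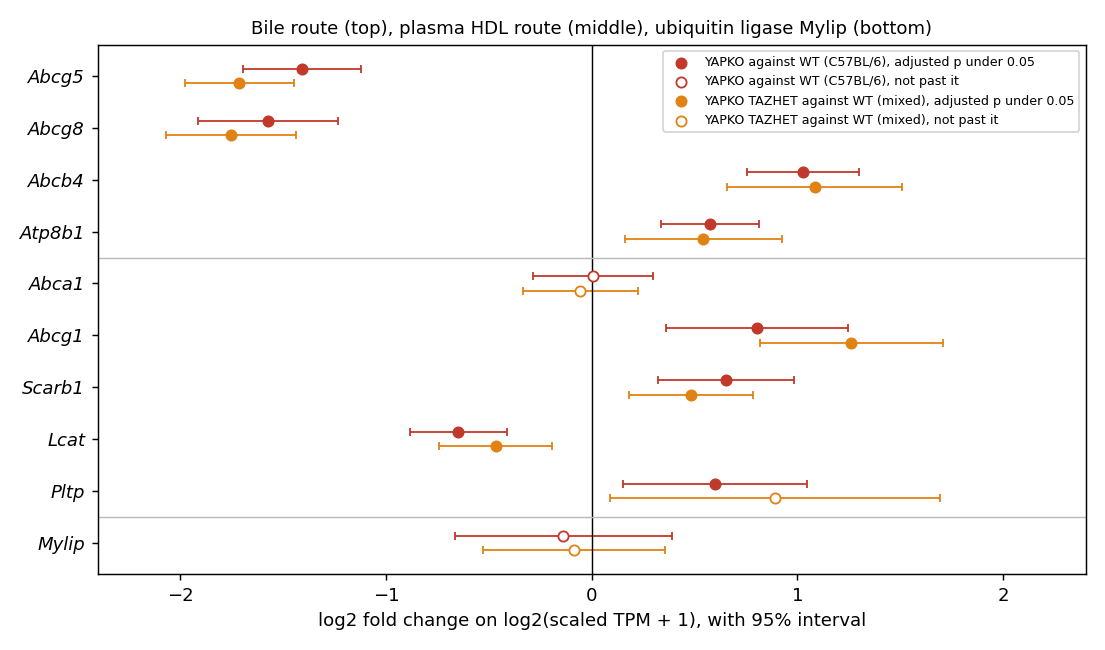
The log2 fold change of each gene on log2(scaled TPM + 1) against WT littermates (points) is plotted with its 95% interval (bars) for YAPKO (red) and YAPKO TAZHET mice (orange), filled where the limma adjusted p was under 0.05. *Abcg5* and *Abcg8* lie from -1.75 to -1.41 and *Abcb4* at 1.03 and 1.08, and the intervals of *Abca1* and *Mylip* cross 0 in both models.

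Macrophages use ABCA1, ABCG1 and PLTP, and macrophage genes were at higher levels in both models. The summed level of 8 macrophage genes was 326 to 436 TPM in WT (C57BL/6) and 1099 to 1525 TPM in YAPKO livers, and 285 to 581 TPM in WT (mixed) and 1162 to 1410 TPM in YAPKO TAZHET livers. All 8 were called higher in both models. Kupffer cell genes summed to 198 to 240 and 472 to 733 TPM in the C57BL/6 set and to 177 to 378 and 717 to 931 TPM in the mixed set, with 5 of 6 called higher in both (not *Timd4*). Genes of recruited macrophages summed to 56.97 to 73.6 and 654 to 1056 TPM, and to 56.3 to 87.5 and 467 to 515 TPM, with 8 and 7 of 8 called higher. Of these, *Ccr2*, *Itgam*, *Itgax* and *Gpnmb* were under 1 TPM in every WT liver and passed the filter only through the knockout livers, and *Trem2* reached 1 TPM in 1 WT liver of each set, so that for these genes only a rise could be called. The recruited macrophage sums were mostly *Cd9* and *Spp1*, with means of 299 and 450 TPM in YAPKO and 309 and 154 TPM in YAPKO TAZHET livers. Which cells held the RNA of *Cd9* and *Spp1* was not measured, so these sums are not a measure of recruited macrophages. *Ccr2*, *Ly6c2*, *Itgam* and *Itgax* each had means of only 1.64 to 4.11 TPM in the knockout groups, so the sums say little about them.

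The order of the livers within a group was compared with these sums as a description. The liver with the highest sum of the 8 macrophage genes had the highest *Abcg1* and *Pltp* of its group in 3 of 4 groups (WT (C57BL/6) replicate LM75, YAPKO replicate LM74 and WT (mixed) replicate LM226), and the lowest of both in YAPKO TAZHET mice (replicate LM225, 1410 TPM). By the Kupffer cell sum LM225 was instead the lowest of its group (717 TPM, against 931 and 924). For *Abca1* the liver with the highest sum was the highest in 3 of 4 groups and the lowest in WT (C57BL/6) mice. At the low end, all 3 genes were lowest in the liver with the lowest sum only in WT (mixed) mice (replicate LM227). In the other 3 groups that liver was the lowest for 1 of the 3 genes, *Abcg1* in WT (C57BL/6), *Pltp* in YAPKO and *Abca1* in YAPKO TAZHET mice. The part of macrophage RNA in the rise of *Abcg1* and *Pltp* was not tested.

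**Figure D4:**
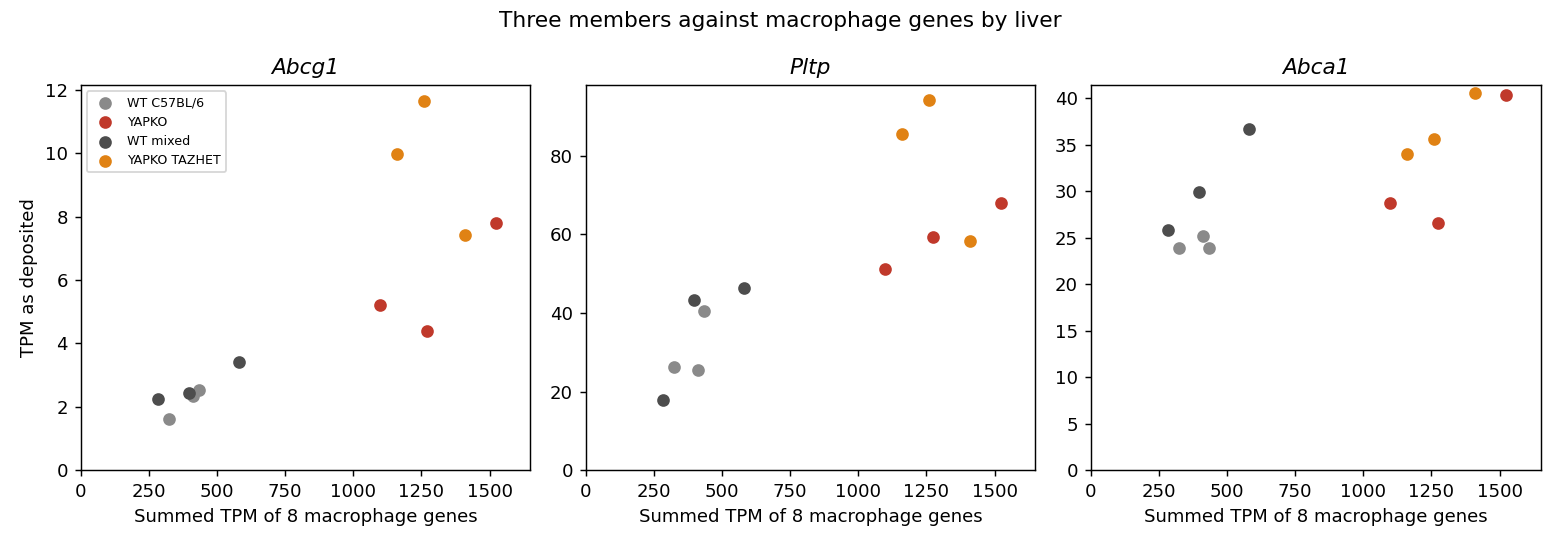
*Abcg1*, *Pltp* and *Abca1* (y axis, TPM as deposited) are plotted against the summed TPM of 8 macrophage genes (x axis), 1 point a liver, coloured by group. The WT livers lie between 285 and 581 TPM of macrophage genes and the knockout livers between 1099 and 1525 TPM, with no liver in between.

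Markers of the other cell types were summed in the same way. The 6 biliary genes summed to 10.6 to 15.3 TPM in WT (C57BL/6), 22.2 to 33.4 in YAPKO, 11.4 to 20.3 in WT (mixed) and 22.5 to 25.1 TPM in YAPKO TAZHET livers. Of the 4 biliary genes tested, *Sox9* was higher in both models and *Epcam* lower in YAPKO TAZHET mice (log2 fold change -1.48, limma adjusted p = 0.00118), and the defining duct gene *Cftr* was listed at 0 in at least 1 library. Stellate cell and fibroblast genes summed to 28.3 to 40.3 TPM in WT and 107 to 218 TPM in knockout livers, with *Pdgfrb*, *Col1a1* and *Col3a1* higher in both models, *Lrat* lower in YAPKO mice (log2 fold change -0.84, limma adjusted p = 0.00992) and *Reln* and *Des* not called in either. The endothelial sums overlapped between knockout and WT livers (73.5 to 125 against 77.6 to 106 TPM), with 2 of 6 genes lower in YAPKO mice, and 2 lower and 1 higher in YAPKO TAZHET mice. The 8 hepatocyte genes summed to 88225 to 98777 TPM in WT (C57BL/6) and 72220 to 80861 TPM in YAPKO livers, and to 85337 to 101458 and 71167 to 84058 TPM in the mixed set, with *Ttr* called lower in both models and *Alb* in YAPKO mice. Without *Alb* the sums of the other 7 overlapped, at 15539 to 18298 TPM in WT (C57BL/6), 16231 to 18051 in YAPKO, 17216 to 19676 in WT (mixed) and 16516 to 19579 TPM in YAPKO TAZHET livers. The part of such differences in the falls of *Abcg5*, *Abcg8* and *Lcat*, which hepatocytes express, was not tested.

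The models were compared with each other through the difference between their changes, in 1 fit of all 12 livers. None of the 10 genes passed the threshold in limma, nor did any have an unadjusted p under 0.05, and 7 of 12159 genes passed (0.0576%). The intervals show what such a difference could still be. For *Abcg1* the change in YAPKO minus that in YAPKO TAZHET mice was -0.46 (95% interval -1.09 to 0.17), for *Abcg5* 0.29 (-0.07 to 0.66), for *Abcb4* -0.07 (-0.58 to 0.44), for *Lcat* -0.19 (-0.51 to 0.13) and for *Pltp* -0.30 (-1.28 to 0.68). The limma adjusted p was 0.999 for each of the 10. The loss of 1 copy of *Wwtr1* cannot be told apart here from the strain background, from the animals used or from the depth of the *Yap1* loss, which itself differed between the models (-1.59, limma adjusted p = 0.0371). For *Wwtr1* the difference was 0.46 (unadjusted p = 0.00541, limma adjusted p = 0.802).

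The WT groups were compared for the size of a difference without any deletion. They come from 2 tables, each made by the authors on its own, so a difference between the groups and one between the tables cannot be told apart. None of the 10 genes was called by limma, where 0.216% of 11126 genes were. The unadjusted limma p was under 0.05 for *Abcg8* (log2 fold change 0.51 higher in the mixed set, standard error 0.16, limma adjusted p = 0.681) and *Mylip* (0.40 higher, standard error 0.14, limma adjusted p = 0.761). The share of all genes under that unadjusted threshold is not reported here, so these 2 are not shown to stand out. *Abcg8*, *Abca1* and *Mylip* did not overlap between the WT groups in TPM, with ratios of mean TPM 1.495, 1.27 and 1.43 (exact permutation, two-sided p = 0.1 in each), where 11.7% of all genes tested did not. *Abcg8* thus stood higher in mixed than in C57BL/6 livers both in WT mice and in the knockout mice (27.5 to 29.8 against 21.2 to 23.7 TPM).

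Genes that work beside the 10 were taken as 9 lists. Of their 104 genes, a few of which are on more than 1 list, 96 could be tested in YAPKO mice and 53 were called (25 higher, 28 lower, 55.2%, beside 36.7% of all genes tested). Of 97 tested in YAPKO TAZHET mice 53 were called (22 higher, 31 lower, 54.6%, beside 38.2% of all genes tested). The lists were chosen with earlier results of these data known, so the higher shares do not set these genes apart. Among the called, *Gramd1b* and *Npc1l1* in both models and *Atp10d* in the mixed set passed the filter only through the knockout livers. Without scaling the split was 41 higher and 18 lower, and 40 higher and 15 lower; over all genes it was then 4390 and 834 in place of 2202 and 2094, and 4089 and 886 in place of 2253 and 2233. The counts of single lists below are to be read beside the same shares of all genes, 36.7% and 38.2%, and some lists lie near them. The examples named are those with the largest change in YAPKO mice among the called, and the first gene of each list, with some left out. Values are log2 fold changes, first in YAPKO and then in YAPKO TAZHET mice, and a rise or fall is a limma adjusted p under 0.05.

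Of 10 nuclear receptor genes, 1 rose and 4 fell in YAPKO mice, and 1 rose and 6 fell in YAPKO TAZHET mice. *Ppara*, the receptor for fatty acids, fell by 1.55 and 1.88, and *Nr1h4*, the bile acid receptor FXR that controls *Abcb4* among others, fell by 1.09 and 1.11. *Pparg* rose by 1.13 and 0.60. The fall of *Rxra*, the shared partner of these receptors, was 0.50 and 0.43, and it was not called without scaling or with quantile normalization. *Nr1h2*, the gene of LXR beta, was at -0.01 and -0.11 and was not called. *Nr1h3*, the gene of LXR alpha, which was added to the examples after its values were seen, fell by 0.49 and 0.42 and was not called in either model without scaling (-0.13 and -0.10).

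Of 12 other LXR targets, 4 rose and 3 fell in YAPKO and 3 rose and 4 fell in YAPKO TAZHET mice, so this group did not move as one. *Srebf1*, the master regulator of fatty acid synthesis, fell by 1.10 and 1.74. *Lpl*, the lipase of triglyceride-rich lipoproteins, rose by 4.40 and 4.29, from 5.93 ± 0.599 to 189 ± 58.1 TPM in the C57BL/6 set and from 7.50 ± 3.11 to 198 ± 55.8 TPM in the mixed set (SD, n = 3). *Apoc2*, its cofactor, rose by 1.22 and 1.09. *Scd1*, a fatty acid desaturase, rose by 1.04 in YAPKO mice and was at -0.40 (limma adjusted p = 0.416) in YAPKO TAZHET mice.

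Of 17 genes of the HDL particle and its remodelling, 4 rose and 10 fell in YAPKO and 4 rose and 8 fell in YAPKO TAZHET mice. *Apoa1*, the main HDL protein and the acceptor of ABCA1, was not called (-0.04 and 0.21). *Pon1*, an esterase carried on HDL, fell by 1.70 and 1.59, and *Lipg*, a phospholipase of HDL, by 1.65 and 2.53. *Clu* (apolipoprotein J) rose by 2.30 and 2.19 and the scavenger receptor gene *Cd36* by 1.63 and 0.59. Of 13 partners in biliary lipid handling, 4 rose and 4 fell in YAPKO and 2 rose and 4 fell in YAPKO TAZHET mice. *Abcb11*, the bile salt export pump, was not called (0.36 and 0.27). It was called higher in both models without scaling (0.72 and 0.59) and with quantile normalization (0.68 and 0.61). *Pctp*, a phosphatidylcholine carrier, fell by 1.12 and 0.99, and *Ttc39b* by 0.88 and 0.94 (in YAPKO TAZHET mice not called without scaling, -0.65). *Abcc2*, which exports conjugates into bile, fell by 0.50 and 0.68, and was not called without scaling or with quantile normalization. *Npc1l1*, which takes up cholesterol, rose by 1.17 and 1.34, from at most 0.356 TPM in any WT liver to 1.21 to 2.39 TPM in the knockout livers, and passed the filter only through the latter.

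Of 9 tested genes of the MYLIP axis, none rose and 2 fell in YAPKO and 4 in YAPKO TAZHET mice. *Usp2*, a deubiquitinase, fell by 2.53 and 2.90, and *Vldlr*, a target of MYLIP, by 1.19 and 0.84 (not called without scaling). Of 14 genes of intracellular cholesterol, 5 rose and 4 fell, and 4 rose and 4 fell. *Gramd1b*, a sterol carrier of the endoplasmic reticulum, rose by 1.18 and 1.07, though it was under 1 TPM in every WT liver and passed the filter only through the knockout livers, and *Lipa*, the lysosomal acid lipase, by 0.77 and 0.49. *Nceh1*, a cholesteryl ester hydrolase, fell by 1.15 and 1.18 and *Stard4*, a cholesterol carrier, by 1.07 and 0.98, while *Npc1* was not called (-0.39 and -0.37).

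Relatives of the transporters were compared to see whether they moved alike. Of 10 tested other ABCA and ABCG genes, 5 rose and 1 fell in YAPKO and 4 rose and 1 fell in YAPKO TAZHET mice. *Abca8a* fell by 1.88 and 1.56, and *Abca5* rose by 1.21 and 1.14. *Abcg3* rose by 0.63 and 0.94 and *Abca9* by 0.61 in YAPKO mice (0.43 and not called in YAPKO TAZHET mice), both not called in YAPKO mice with quantile normalization, and *Abca2* was not called (0.46 and 0.25). Of the P4-ATPase family of *Atp8b1* with its subunits, 3 of 10 tested rose and 1 fell in YAPKO and 4 of 11 rose and 1 fell in YAPKO TAZHET mice. *Atp11a* rose by 1.52 and 1.30. *Atp10d* rose by 0.64 and 0.51, was not called in either model with quantile normalization (0.42 and 0.26), and in the mixed set reached 1 TPM only in the knockout livers. *Atp9a* rose by 0.76 in YAPKO mice. In YAPKO TAZHET mice it was not called (0.36), but was called higher without scaling (0.68) and with quantile normalization (0.52). *Atp8a1* was at 0.30 (not called) in YAPKO mice and rose by 0.40 in YAPKO TAZHET mice (not called with quantile normalization, 0.14). Of 9 genes that supply phosphatidylcholine, the cargo of ABCB4, 2 rose and 1 fell, and 2 rose and 2 fell. *Chka*, a choline kinase, rose by 2.92 and 2.69 and *Lpcat2*, an acyltransferase, by 1.39 and 1.44. *Pemt*, which makes phosphatidylcholine by methylation, fell by 0.41 in YAPKO mice, which was not called without scaling (-0.05) or with quantile normalization (-0.08), and was at -0.31 (limma adjusted p = 0.059) in YAPKO TAZHET mice.

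**Figure D5:**
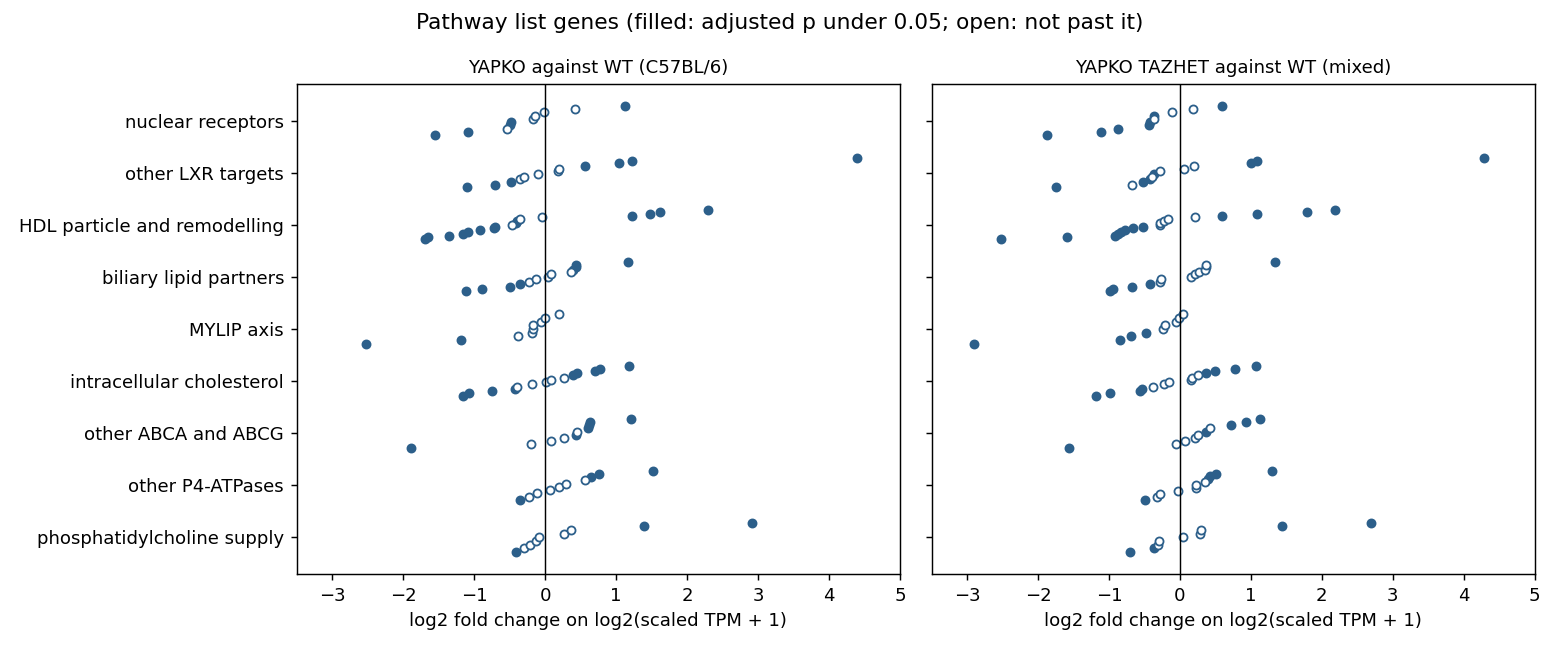
Log2 fold changes on log2(scaled TPM + 1) of the tested genes of 9 lists (rows) are plotted for YAPKO (left) and YAPKO TAZHET mice (right), 1 point a gene, filled where the limma adjusted p was under 0.05. Most lists hold filled points on both sides of 0, and *Lpl* at 4.40 and 4.29 is the farthest to the right.

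The mice of a group also differed among themselves, and these deviations from the group means were compared across the 12 livers on the log2 scale with all 12158 other genes, as a description. The points share libraries and scaling factors, and a nearest gene is the highest of 12158 correlations over only 12 livers. How high that highest r would be for unrelated genes was not tested. The nearest genes named below are thus not shown to go with a member. *Abcg8* lay nearest to *Scarb1* among the 10 (Pearson r = 0.75, Spearman rho = 0.70), and *Scarb1* was at rank 179 of all genes for *Abcg8*. *Abcg5* was at rank 1439 for *Abcg8* (r = 0.47, rho = 0.57), so the subunits of the heterodimer, which moved together between groups, were not each other's nearest genes within them. *Abcg1* and *Pltp* had r = 0.63 (rho = 0.67), and *Abcb4* and *Atp8b1*, which both rose, had r = -0.69 (rho = -0.50). The genes nearest to each member were *Eif5* for *Abcg5* (r = 0.92), *Tbc1d20* for *Abcg8* (0.94), *Cdk2* for *Abcb4* (0.96), *Nufip1* for *Atp8b1* (0.94), *Cybb* for *Abca1* (0.98), *Abcc1* for *Abcg1* (0.97), *Plekha6* for *Scarb1* (0.95), *Tmem59* for *Lcat* (0.94), *Rbpms* for *Pltp* (0.95) and *Ift22* for *Mylip* (0.96).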

How the data were processed

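Reads were mapped by the authors with CLC Genomics Workbench 20.0.3 on GRCm38.p6, and TPM for every gene in every mouse were deposited in 1 table for each model and its WT littermates. The tables also hold the authors' own comparisons (fold changes, p-values and false discovery rates), which were not used. The 10 genes and the lists of pathway and marker genes were chosen with earlier results of these data known. Each TPM column was matched to 1 mouse, and no pair of libraries was identical (0). Whether the libraries were stranded is not given in the sources used here, and that mice are separate animals comes from their numbers in the labels.

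Each comparison used its own libraries. TPM was divided by an unweighted trimmed mean of log ratios (30% of log ratios and 5% of levels trimmed), and genes reaching 1 TPM in 3 or more libraries were tested on log2(scaled TPM + 1) with limma 3.58.1 in R 4.3.3 (lmFit, eBayes with a trend, two-sided, Benjamini-Hochberg, threshold 0.05). This stands in for the count test of the study, since TPM are not counts. Single genes were compared with exact permutation tests (scipy 1.17.1). The named genes were the 10, the first gene of each pathway list with at most 4 more by size of change among the called, and the gene nearest to each of the 10 by correlation of deviations from group means. Some genes that this rule names are not reported here. Coordinates matched GENCODE M21 for all 10, and blastn 2.17.0 found no near copy of any of the 10 (90% identity over 30% of the length). The fits were tested on simulated data. Alternatives were a pseudocount of 0.1, leaving out the filter or raising it to 5 TPM, leaving out the scaling or replacing it by quantile normalization, robust shrinkage, all 12 libraries in 1 fit, a block of animals with near numbers, and each mouse left out.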

Additional observations from a re-analysis of the deposited data

How the results depend on the processing

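*Abcg5*, *Abcg8*, *Abcb4* and *Abcg1* were called in both models under every alternative in which they could be tested, and *Atp8b1*, *Scarb1* and *Lcat* in YAPKO mice. With 1 mouse left out, 7 to 8 of the 10 genes were called in YAPKO mice and 4 to 7 in YAPKO TAZHET mice (4 without replicate LM250), and 33 to 48 pathway genes in YAPKO TAZHET mice (33 without replicate LM250 or LM251). The share of all genes called in these fits is not reported here, so the counts do not set these genes apart. Without scaling the median of the bile route was -0.074 and -0.28 and that of the HDL route 0.95 in YAPKO mice, and the calls of YAPKO TAZHET mice, there and with quantile normalization, split into 5 higher and 2 lower in place of 4 and 3. The cause of the losses with 1 mouse left out was not tested. The paper gives a nominal depth for all samples, and the depth reached by each library is unknown. No paired analysis was possible because the labels give each animal a number of its own. A block of near numbers, which the labels do not say mark a pair, was fitted in the YAPKO set alone and gave 8 calls.

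Signs turned only where nothing was called. Without scaling, *Mylip* was 0.17 and 0.21, *Abca1* in YAPKO TAZHET mice 0.26 and *Lcat* between the WT groups 0.0068. With quantile normalization *Abca1* was 0.050 in YAPKO TAZHET mice and the difference between the models -0.019 for *Atp8b1*, and with all 12 libraries *Abca1* was -0.0022 in YAPKO mice. With 1 mouse left out, *Abca1* ran from -0.11 to 0.089 and from -0.16 to 0.034, and *Mylip* from -0.41 to 0.046 and from -0.23 to 0.10, in the order YAPKO and YAPKO TAZHET. Between the WT groups *Abcb4* ran from -0.26 to 0.039, *Atp8b1* from -0.032 to 0.27, *Lcat* from -0.11 to 0.027 and *Pltp* from -0.14 to 0.48. The difference between the models ran from -0.26 to 0.059 for *Abcb4*, from -0.11 to 0.20 for *Atp8b1*, from -0.066 to 0.16 for *Abca1*, from -0.54 to 0.11 for *Pltp* and from -0.34 to 0.12 for *Mylip*. The log2 difference of the *Abcg5* to *Abcg8* ratio in YAPKO TAZHET mice ran from -0.022, without WT (mixed) replicate LM227, to 0.10.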
